A study of Homo sapiens with 6 samples.

Results

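Ribosome footprints of the library labelled MT were compared with those of the library labelled EV in 786-O cells, a human line of clear cell renal carcinoma without working VHL. The genes described are those with a symbol and a value of at least 1 TPM in 1 or both of these libraries. They number 10737 of the 19669 named genes in the table. Of the others, 2454 were above 0 but under 1 TPM in both libraries, and 6478 were listed at 0 in both. TPM is a share of one library after division by gene length, so each library has the same total. Of the genes measured, 6287 reached 10 TPM and 1536 reached 100 TPM. Readthrough names, which join the symbols of neighbouring genes, made up 48 of the genes measured, and without them 6272 genes stood at 10 TPM or more.

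The study held 1 RNA-seq and 1 Ribo-seq library for each of 3 labels, EV, WT and MT. EV carried an empty vector. The labels give MT as cells overexpressing PHYHD1, and the series title adds that the MT protein lacks residues 107 to 130. WT is PHYHD1-WT in the title and in the column names, but the design text calls that group untreated. All cells were of the 786-O line, with 3 dishes named per condition, and no source used here says whether dishes were pooled. For the Ribo-seq libraries of all labels, cells were treated with 100 µg/ml cycloheximide. Neither the vector, its promoter nor the number of clones is given. With 1 library per label, each difference below is between libraries and has no replicate check, no error and no p-value. A gene is called higher or lower at 2-fold or more after adding 1 to both values; this rule sets a size and tests nothing.

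Ribosome profiling sequences the mRNA fragments that ribosomes shield from nuclease, so a gene's footprint value depends both on how much of its mRNA is present and on how densely ribosomes occupy it. Translation begins when initiation factors load the small ribosomal subunit onto the mRNA cap. It is slowed by stress kinases that phosphorylate eIF2 and, for many mRNAs of the translation machinery, through a run of pyrimidines at the first bases of the transcript. PHYHD1 belongs to the iron- and 2-oxoglutarate-dependent dioxygenases, a family that also holds the hydroxylases of hypoxia-inducible factors and demethylases of histones and nucleic acids.

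The cells carried footprints of the line's defining genes in both libraries. Of 20 genes listed for the line, 8 had a larger value in MT than in EV and 12 a smaller one, with 0 past 2-fold. Vimentin (VIM) stood at 1691 TPM in EV against 1675 TPM in MT, caveolin 1 (CAV1) at 463 and 497 TPM, and the renal lineage factor gene PAX8 at 98.8 and 78.2 TPM. Among those smaller in MT, CD44 stood at 766 and 606 TPM and CD70 at 443 and 356 TPM. The proximal tubule receptor LRP2 and transporter SLC34A1 were listed at 0 in both, and the water channel AQP1 reached 0.116 TPM in MT. None of the leukocyte and endothelial markers examined was measured at 1 TPM. Of the reference genes, ACTB stood at 12118 TPM in EV against 10930 TPM in MT, GAPDH at 2801 and 2558 TPM, and CCND1 at 135 and 139 TPM.

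PHYHD1 was listed at 0 TPM in EV, 905 TPM in MT and 222 TPM in WT. Its mRNA stood at 0.092 FPKM in EV and 109.5 FPKM in MT (FPKM is a read value scaled to gene length and library size). The MT library is thus the one with the highest PHYHD1 footprint value, and no fold is given over a listed 0. Values per gene cannot show whether residues are missing. No other member of the 2-oxoglutarate dioxygenase list passed the rule, 1 of 50 measured. Nearest to the rule were TET2, an oxidase of methylated DNA, at 2.25 TPM in EV against 0.725 TPM in MT, and the histone demethylase genes KDM4B (2.75 and 5.80 TPM) and KDM4A (16.2 and 8.81 TPM). HIF1AN, which encodes the asparaginyl hydroxylase of hypoxia-inducible factors, stood at 20.5 TPM in EV against 32.3 TPM in MT, and the prolyl hydroxylase gene EGLN1 at 15.9 and 10.5 TPM.

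Across all genes the libraries were close. The median log2 difference was 0.01 and 52.1% of genes lay above 0. Of genes measured, 182 were higher in MT (1.7% of 10737) and 122 were lower (1.14%). At 10 TPM or more and without readthrough names, 61 were higher (0.973% of 6272) and 21 were lower (0.335%). Most of the calls were of low genes, as 72.0% of the 304 genes past the rule stood under 10 TPM in both libraries.

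The spread of differences narrowed as levels rose. Among the 1590 genes between 1 and 3 TPM, 5.03% passed the rule and the robust SD of the log2 differences across genes was 0.42. From 10 to 30 TPM the share was 2.30% of 2734 genes and the robust SD was 0.28. From 100 to 300 TPM 1 of 950 genes passed, with a robust SD of 0.15, and of 194 genes at 1000 TPM or more none passed 2-fold. At 100 TPM or more 99.5% of genes lay within 1.5-fold. Genes above 0 in only 1 of the 3 Ribo-seq libraries had a median of 0.123 TPM in EV against 0.118 TPM in MT. How many reads that is worth is unknown. Genes lay close on both sides of the 2-fold line. BIN3, with a log2 difference of 1.003, was called higher (12.7 to 26.4 TPM), and KANK2, with a nearly equal difference that stayed under it, was not (21.6 to 44.1 TPM).

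**Figure D1:**
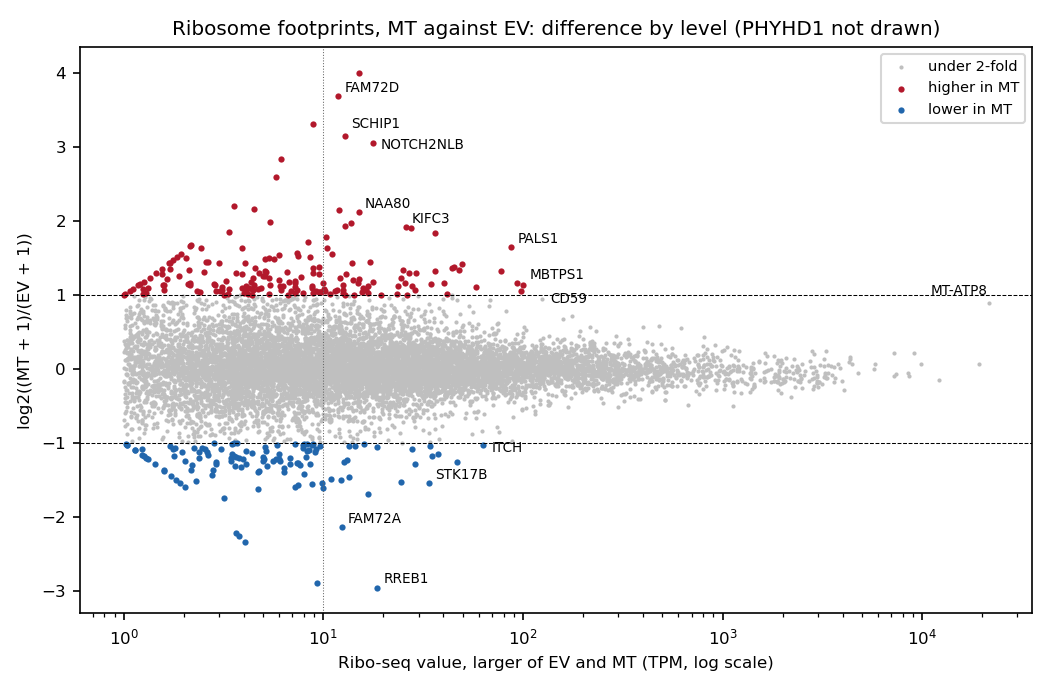
Each point is 1 gene, with the larger of its EV and MT Ribo-seq values on the x axis (TPM, log scale) and its log2 difference, MT over EV after adding 1, on the y axis. Red points were higher and blue points lower by 2-fold (dashed lines), the dotted line marks 10 TPM, and the fan of points closes toward the right, where none of the 194 genes at 1000 TPM or more passed the rule.

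The mRNA libraries of the same labels moved little with the footprint calls. Of the 61 higher genes at 10 TPM or more, 57 had mRNA at 1 FPKM or more in EV or MT, and 25 of these had a higher mRNA value in MT. Their median mRNA log2 difference was -0.04, beside 0.00 over the 6208 such genes with mRNA measured. PHYHD1 and ASTE1 were the 2 that passed 2-fold in mRNA too. Of the 21 lower genes, 20 had mRNA measured, 10 had a lower mRNA value in MT and none passed 2-fold. IFITM2, FAM72D and PARP11 (the last chosen after its values were seen) went opposite ways in the 2 assays by more than 0.5 on the log2 scale in mRNA, and so did PPIP5K1 and, among lower genes, NEMP2.

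**Figure D2:**
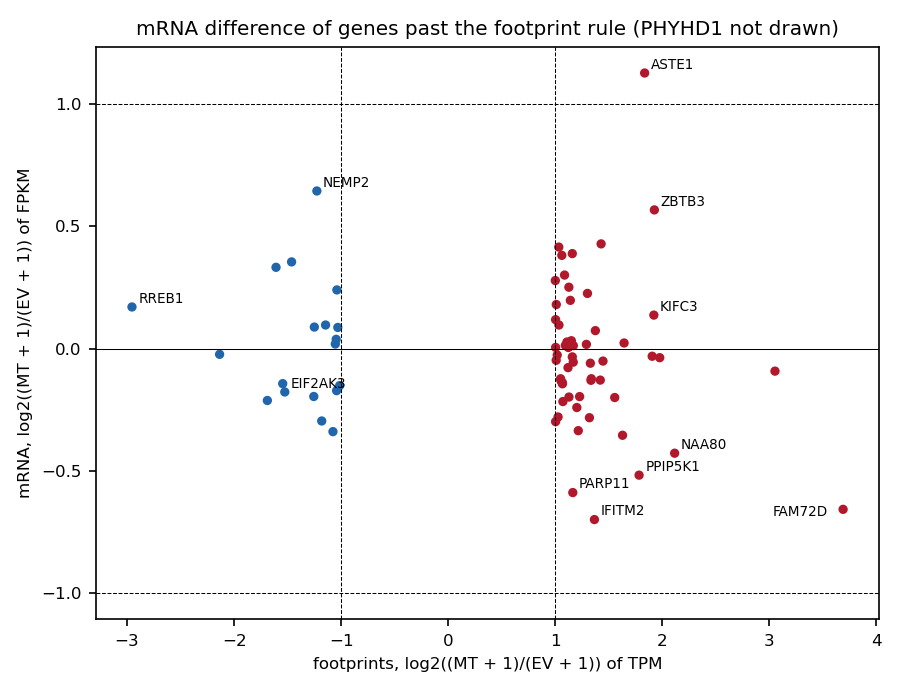
Genes at 10 TPM or more that passed the footprint rule, with the footprint log2 difference on the x axis and the mRNA log2 difference on the y axis (both MT over EV, after adding 1 to TPM or FPKM). Of the points drawn, ASTE1 alone lies past the dashed 2-fold line for mRNA, and the others scatter on both sides of 0.

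NAA80, the acetyltransferase of the actin N terminus, stood at 2.71 TPM in EV, 15.1 TPM in MT and 5.92 TPM in WT, while its mRNA was 3.06 and 2.02 FPKM in EV and MT. KIFC3, a minus-end-directed kinesin, stood at 6.10 TPM in EV, 25.9 TPM in MT and 5.79 TPM in WT, a 4.24-fold higher value in MT with mRNA at 19.3 and 21.3 FPKM. MRTFA, the actin-sensing coactivator of serum response factor (outside the naming rule and picked with its values known), stood at 10.5 TPM in EV, 27.0 TPM in MT and 18.2 TPM in WT. For KIFC3 the MT library was apart from both others, and for NAA80 and MRTFA the WT value lay between. Few genes passed the rule in the lists that hold NAA80 and KIFC3, beside 1.7% higher and 1.14% lower of all genes measured. Of 41 actin cytoskeleton genes NAA80 was the 1 higher and 0 were lower, with a median log2 difference of 0.04, and of 45 tubulin and kinesin genes KIFC3 was the 1 higher and 0 were lower, with a median of 0.01.

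PALS1, a scaffold of the Crumbs cell polarity complex, stood at 27.2 TPM in EV, 87.0 TPM in MT and 23.2 TPM in WT. Its mRNA was 11.9 FPKM in EV and 12.1 FPKM in MT. FRMD4B, a FERM domain protein gene, stood at 16.8 TPM in EV, 45.2 TPM in MT and 16.6 TPM in WT, and SYNC, which encodes the intermediate filament protein syncoilin, at 3.10, 11.1 and 8.71 TPM. PALS1 and FRMD4B were high in MT alone, with EV and WT nearly equal. Among 20 cell junction genes the median log2 difference was -0.06 and the 1 called higher, CDH3, stood at 0 and 1.08 TPM. Integrin subunits numbered 14, of which ITGB6 was lower (8.56 TPM in EV against 2.91 TPM in MT) and none higher.

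Transcription factor genes passed the rule in both directions. ZBTB20, a zinc finger repressor, stood at 2.76 TPM in EV, 13.8 TPM in MT and 10.8 TPM in WT. ZBTB3, of the same BTB zinc finger family, stood at 2.66, 12.9 and 9.08 TPM, with mRNA at 0.531 FPKM in EV and 1.27 FPKM in MT. For both, the WT value was nearer to MT than to EV. They were the 2 higher of 32 ZBTB genes measured, and 0 were lower. Over all genes measured 1.7% were higher and 1.14% lower, and 5 of the 32 reached 10 TPM. NRIP1, a corepressor of nuclear receptors, stood at 13.9 TPM in EV, 36.5 TPM in MT and 14.2 TPM in WT.

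RREB1, a zinc finger factor that binds Ras-responsive elements, was the lowest of all genes at 10 TPM or more. It stood at 18.7 TPM in EV, 1.54 TPM in MT and 1.72 TPM in WT, a log2 difference of -2.95 in MT over EV. The EV value is the one that stands apart, since MT and WT lie together, and the mRNA was 7.22 FPKM in EV and 8.25 FPKM in MT. NR2F2, the nuclear receptor COUP-TFII, stood at 37.4 TPM in EV, 16.4 TPM in MT and 25.6 TPM in WT. DMTF1, a cyclin D-binding Myb-like factor, stood at 18.5, 8.40 and 26.1 TPM. Here WT lay between for NR2F2 and above both for DMTF1.

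The ZNF zinc finger genes formed the largest list, with 368 measured. Of these 15 were higher and 9 lower, beside 1.7% and 1.14% of all genes measured. The median log2 difference was 0.05 with 213 above 0. Only 70 of the 368 reached 10 TPM, and of all genes between 3 and 10 TPM 4.86% passed the rule. Most of the named ZNF genes were low. ZNF43 stood at 0.107 TPM in EV against 2.44 TPM in MT, and ZNF814 at 0.044 and 1.55 TPM. ZNF487 went the other way, at 3.17 TPM in EV, 0.245 TPM in MT and 8.24 TPM in WT, and ZNF500 stood at 4.09 and 1.09 TPM. At 10 TPM or more ZNF200 was lower (13.4 TPM in EV, 5.99 TPM in MT and 7.12 TPM in WT), and 5 genes, named after their values were seen, were higher. They were ZNF544 (15.1, 34.7 and 36.5 TPM), ZNF638 (10.9, 25.6 and 17.1 TPM), ZNF101, ZNF468 and ZNF772, the last 3 between 10.8 and 12.6 TPM in MT. The median log2 difference of the 70 ZNF genes at 10 TPM or more was 0.10. Of all genes at that level without readthrough names, 0.973% were higher and 0.335% lower. Among 70 measured KLF, SOX, FOX, HOX, GATA, TEAD and RUNX factors, HOXC6 was the 1 higher (2.32 and 6.26 TPM) and none was lower.

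FGFR1, a receptor tyrosine kinase, stood at 10.4 TPM in EV, 23.8 TPM in MT and 36.0 TPM in WT, with mRNA at 23.4 and 23.5 FPKM. DDR1, a collagen receptor kinase, stood at 4.20 TPM in EV against 9.72 TPM in MT, and MERTK, a receptor for clearance of dying cells, at 0.762 and 2.85 TPM. These were the 3 higher of 33 receptor tyrosine kinases and ligands, with 0 lower and a median log2 difference of 0.07. Over all genes measured 1.7% were higher and 1.14% lower, and 16 of the 33 reached 10 TPM. IGF1R lay on the other side without passing the rule (4.71 and 2.34 TPM). PPIP5K1, an inositol pyrophosphate kinase, stood at 2.30 TPM in EV, 10.4 TPM in MT and 5.51 TPM in WT. STK19 stood at 30.7 TPM in EV, 78.0 TPM in MT and 74.7 TPM in WT, where both PHYHD1 labels lay far above EV. STK17B, a death-associated protein kinase relative, was lower, at 33.8 TPM in EV, 10.9 TPM in MT and 33.6 TPM in WT. For STK17B the MT library alone was low.

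The kinase PERK, encoded by EIF2AK3, senses unfolded proteins in the endoplasmic reticulum and phosphorylates eIF2. Its footprints stood at 24.4 TPM in EV, 7.83 TPM in MT and 16.6 TPM in WT, with mRNA at 14.4 and 12.6 FPKM in EV and MT. The other eIF2 kinases did not pass the rule. EIF2AK1 stood at 39.5 TPM in EV against 44.6 TPM in MT, EIF2AK2 at 17.3 and 22.4 TPM, and EIF2AK4 at 3.44 and 3.17 TPM. Downstream, ATF4, the transcription factor whose translation is favoured when eIF2 is phosphorylated, stood at 176 TPM in EV, 226 TPM in MT and 206 TPM in WT. ATF5 stood at 10.6 TPM in EV against 19.4 TPM in MT, and DDIT3, which encodes CHOP, at 5.99 and 9.19 TPM. None of these 3 passed 2-fold, while CHAC1 (75.0 and 57.8 TPM) and TRIB3 (40.8 and 31.4 TPM), targets of ATF4, lay on the other side. Of the 14 genes of this pathway 1 was lower, 0 were higher and the median log2 difference was 0.07. Of the 23 genes of the endoplasmic reticulum unfolded protein response none passed the rule, and its most abundant members, CALR and P4HB, stood at 1788 and 1934 TPM and at 1108 and 1088 TPM in EV and MT.

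Genes of the secretory and membrane systems were found on both sides. MBTPS1, the site-1 protease that cleaves SREBP and ATF6, stood at 45.3 TPM in EV, 100.3 TPM in MT and 83.5 TPM in WT. Besides PHYHD1 it was the 1 gene at 100 TPM or more past the 2-fold rule. Of 28 cholesterol and fatty acid synthesis genes, many of them known SREBP targets, none passed the rule, 21 lay below 0 and the median log2 difference was -0.11, beside -0.04 in mRNA. FDFT1, the squalene synthase gene, stood at 196 TPM in EV against 167 TPM in MT. DNAJC18, a DnaJ domain protein gene, stood at 6.61 TPM in EV, 27.5 TPM in MT and 12.4 TPM in WT. TMCC1, which encodes a protein of the endoplasmic reticulum, was lower (16.7 TPM in EV, 4.49 TPM in MT and 17.1 TPM in WT). TMCC1 was low in MT alone.

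SLC48A1, the haem transporter HRG1, stood at 35.1 TPM in EV, 14.9 TPM in MT and 17.5 TPM in WT, so that EV was the high library. Of 178 measured SLC transporters 7 were higher and 4 lower, beside 1.7% and 1.14% of all genes measured. Their median log2 difference was -0.02. The largest differences among them were of low genes, such as the glutamate transporter SLC1A3 (1.16 TPM in EV against 4.54 TPM in MT) and the phosphate transporter SLC20A2 (3.65 and 1.04 TPM). NEMP2, a nuclear envelope protein gene, stood at 13.2 TPM in EV, 5.07 TPM in MT and 2.95 TPM in WT. ANKFY1, an effector of the endosomal GTPase RAB5, stood at 34.4 TPM in EV and at 16.2 TPM in both MT and WT. Of 56 RAB and DENN domain genes, RAB31 was the 1 lower (3.45 and 0.943 TPM) and 0 were higher.

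ATG13, a subunit of the ULK1 initiation complex, stood at 5.64 TPM in EV, 17.1 TPM in MT and 24.0 TPM in WT. AMBRA1, a regulator of autophagy and a substrate receptor for cyclin D degradation, stood at 14.3 TPM in EV, 6.43 TPM in MT and 3.91 TPM in WT. In each case the WT value lay beyond MT on the same side of EV. Of 35 autophagy genes measured they were the 2 past the rule, 1 each way, beside 1.7% higher and 1.14% lower of all genes measured. The median log2 difference of the list was 0.06. Members with more footprints differed less, such as SQSTM1 (358 TPM in EV against 278 TPM in MT) and GABARAP (727 and 913 TPM).

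The list of ubiquitin ligase and deubiquitinase families held 234 measured genes, with 5 higher, 1 lower and a median log2 difference of -0.01. Of all genes measured 1.7% were higher and 1.14% lower. USP13, a deubiquitinase, stood at 11.3 TPM in EV, 29.3 TPM in MT and 26.5 TPM in WT. The 1 lower member, TRIM36, stood at 5.89, 2.39 and 1.64 TPM. The next 3 genes of the ubiquitin system are not in that list or its counts. ITCH, a HECT domain ligase, was lower, at 63.3 TPM in EV, 30.4 TPM in MT and 131 TPM in WT. The 3 ITCH values therefore spanned more between WT and MT than between EV and MT. KCMF1, a ubiquitin ligase, stood at 9.31, 25.05 and 19.4 TPM, and KCTD6, a cullin 3 adaptor, at 12.7 TPM in EV, 4.74 TPM in MT and 20.7 TPM in WT. Proteasome subunits did not pass the rule, 0 of 37, with medians of 0.00 in footprints and 0.11 in mRNA on the log2 scale.

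Genes of DNA repair and of unknown role completed the named set. XRCC3, a gene of homologous recombination, stood at 13.4 TPM in EV, 4.22 TPM in MT and 6.93 TPM in WT. ASTE1, an asteroid-family nuclease gene, stood at 9.46 TPM in EV, 36.3 TPM in MT and 22.6 TPM in WT, and its mRNA at 3.15 FPKM in EV and 8.07 FPKM in MT, higher by the same rule. SCHIP1, which encodes a schwannomin-interacting protein, stood at 0.570, 12.8 and 6.53 TPM, with mRNA at 0.144 FPKM in EV and 0 in MT. SPATS2 stood at 18.5 TPM in EV, 48.1 TPM in MT and 13.1 TPM in WT. EOLA1 (2.69, 10.4 and 5.15 TPM) and C21orf91 (4.55, 13.9 and 10.5 TPM) were higher too, and C12orf76 was lower (16.1, 7.46 and 5.38 TPM). EOLA2, a relative of EOLA1, was called lower, at 8.245, 3.578 and 11.7 TPM. How footprints were assigned between EOLA1 and EOLA2 was not tested.

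**Figure D3:**
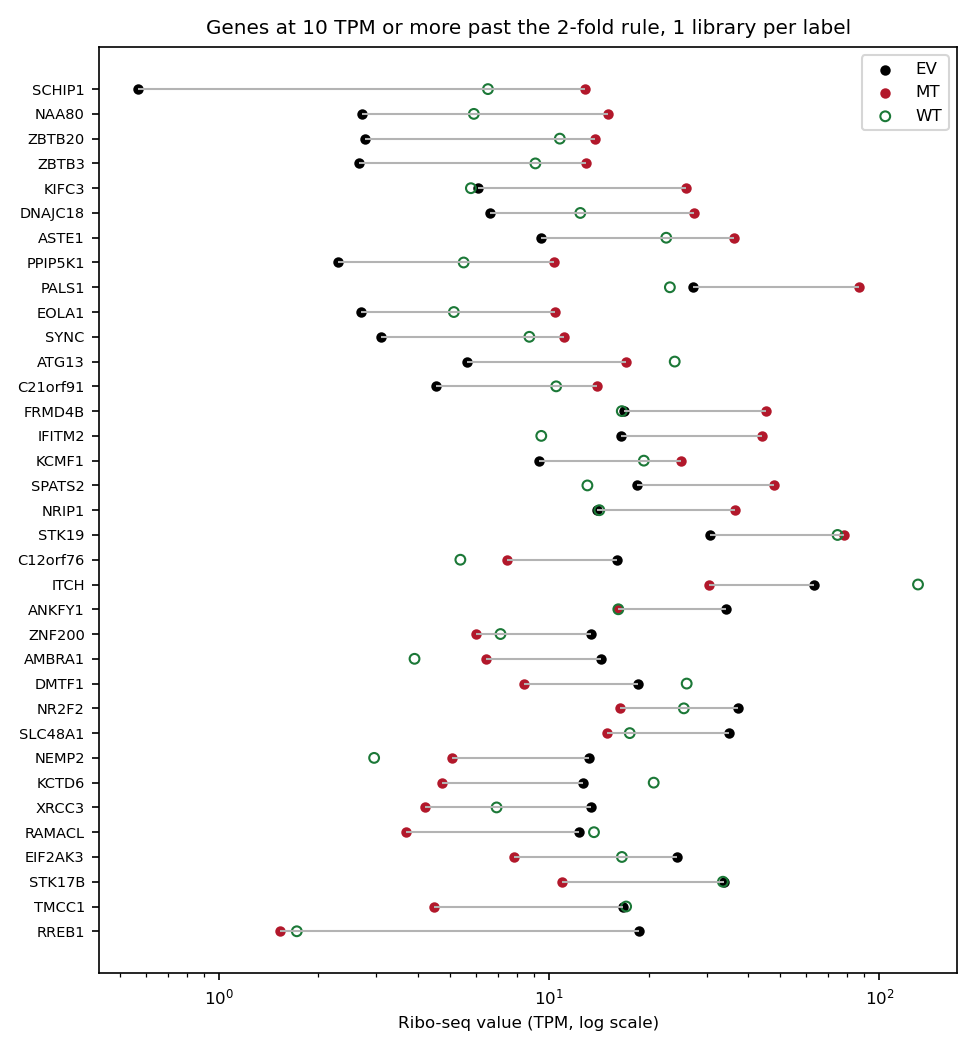
Ribo-seq values (x axis, TPM, log scale) of named genes at 10 TPM or more past the 2-fold rule, with EV as black points, MT as red points and WT as open green circles, and a grey line from EV to MT. WT lies near EV for PALS1, FRMD4B, NRIP1, TMCC1 and STK17B, near MT for RREB1, ANKFY1 and STK19, and outside both for ITCH, ATG13 and AMBRA1.

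The position of the WT library among these genes was mixed. Of the 61 higher genes, WT was above both libraries for 10, between them and nearer to MT for 25, between them and nearer to EV for 15, and below both for 11. Of the 21 lower genes the counts were 6 above both, 6 between and nearer to EV, 5 between and nearer to MT, and 4 below both. These counts are a description only, since the genes were picked by their MT and EV values.

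At 100 TPM or more the largest differences were of moderate size. CD59, an inhibitor of the complement membrane attack complex, stood at 64.4 TPM in EV, 124.6 TPM in MT and 75.5 TPM in WT. CANT1, a Golgi nucleotidase gene, stood at 106.6, 175.7 and 134.0 TPM, and COX14, an assembly factor of cytochrome c oxidase, at 98.9, 158.9 and 125.2 TPM. The MT value was the highest of the 3 for each. MXRA7 (319.7, 479.5 and 352.7 TPM), PPIF, the mitochondrial cyclophilin (270.0, 401.3 and 239.1 TPM), the type IV collagen gene COL4A1 (145.8, 216.7 and 147.1 TPM) and the aldo-keto reductase gene AKR7A2 (68.1, 101.8 and 63.2 TPM) were also above EV in MT. FXYD2, a regulator of the sodium pump, was below it at 115.5 TPM in EV, 75.6 TPM in MT and 127.7 TPM in WT. GGH, a folate hydrolase, stood at 114.6 TPM in EV, 77.3 TPM in MT and 68.3 TPM in WT.

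Footprints of mitochondrially encoded mRNAs, which are translated by the organelle's own ribosomes, were led by 1 gene. MT-ATP8, a subunit of ATP synthase, stood at 11621 TPM in EV, 21537 TPM in MT and 11487 TPM in WT, while its mRNA was 1796 FPKM in EV and 1284 FPKM in MT. Its neighbour MT-ATP6 stood far lower, at 166 TPM in EV against 184 TPM in MT. Whether all fragments counted for MT-ATP8 came from ribosomes was not tested. All 13 mitochondrially encoded genes together held 1.38% of EV, 2.39% of MT and 1.33% of WT, and without MT-ATP8 the shares were 0.219%, 0.237% and 0.186%. The higher share in MT was thus nearly all MT-ATP8. Other complex subunits differed less, such as MT-CYB (170 TPM in EV against 206 TPM in MT), MT-CO1 (429 and 431 TPM) and MT-ND1 (63.4 and 53.2 TPM). Nuclear-encoded oxidative phosphorylation subunits, 75 measured, had a median log2 difference of 0.00 and none past the rule. The 78 mitochondrial ribosomal protein genes had a median of 0.00 and none past it.

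Ribosomal protein genes lay slightly below 0 as a group. Of 49 large subunit genes 40 lay below 0, with a median log2 difference of -0.09, and of 33 small subunit genes 26 lay below 0, with a median of -0.08. None passed the rule, and the medians in mRNA were -0.05 and -0.03. RPS24 stood at 8482 TPM in EV against 8175 TPM in MT, RPL37A at 7202 and 6770 TPM, and RPS16 at 386 and 290 TPM. As a group they held 16.8% of EV, 15.8% of MT and 15.8% of WT. The MT and WT libraries thus held nearly equal shares, both under that of EV. EEF1A1, the elongation factor that carries aminoacyl-tRNA to the ribosome, stood at 3001 TPM in EV, 2529 TPM in MT and 2637 TPM in WT.

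The start of a few of these transcripts is shown because many, but not all, have a pyrimidine run at or near the start, and those printed were picked for having one. Below are 30 bases from RefSeq (GRCh38.p14), from 10 bases before to 20 bases after the annotated start, with capitals for the run of pyrimidines.
RPS24: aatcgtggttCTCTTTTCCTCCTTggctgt
RPS16: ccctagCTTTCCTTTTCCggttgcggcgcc
RPL37A: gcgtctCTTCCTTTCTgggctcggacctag
EEF1A1: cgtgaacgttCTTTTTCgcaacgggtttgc
RREB1: cgccattttgattCCTTTTCCggaacaagt

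A run was counted where a C within 5 bases of the start was followed by at least 5 bases that were all C or T, on the transcript's strand. It was found in 11.05% of the 27305 genes with a promoter in the table, in 68.3% of 41 large subunit genes and in 76.9% of 26 small subunit genes. Among measured genes that encode no ribosomal protein, the 1007 with a run had a median log2 difference of 0.00 and the 7817 without one had a median of 0.01. Large subunit genes with a run had a median of -0.07 (28 genes) and those without one -0.12 (13 genes). In the small subunit the order was the other way, with a median of -0.12 in 20 genes with a run and -0.05 in 6 without. Among genes at 1000 TPM or more that encode no ribosomal protein, the 18 with a run had a median of -0.09 and the 97 without one -0.03. Histone genes, with a median of -0.17 at that level, were not removed here. The part of these letters in the differences was not tested. RREB1 is shown as the lowest of the genes at 10 TPM or more. Its counted run lies after the annotated start, which is an A, so the transcript as annotated does not open with pyrimidines.

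Of the other translation genes, EIF4G3, a scaffold of the cap-binding complex, was the 1 lower of 37 initiation factors and stood at 9.58 TPM in EV against 4.15 TPM in MT. Its relative EIF4G1 lay on the other side at 47.5 TPM in EV, 82.5 TPM in MT and 73.9 TPM in WT, short of 2-fold. EIF4E3, a cap-binding protein gene, stood at 1.77 and 4.47 TPM and was also short of it. The initiation factors as a list had a median log2 difference of -0.01. Cytosolic aminoacyl-tRNA synthetases, 20 measured, had a footprint median of -0.06 and an mRNA median of -0.21, with none past the rule. TARS1, for example, stood at 253 and 239 TPM in footprints and at 246 and 210 FPKM in mRNA.

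Replication-dependent histone genes, which are expressed in S phase and whose mRNAs lack a poly(A) tail, lay below 0 in 50 of 61 cases, with a median log2 difference of -0.16. They held 7.83% of EV, 7.08% of MT and 7.54% of WT. In bulk cells, fewer cells in S phase and fewer histone footprints per cell cannot be told apart. The DNA replication genes measured beside them had a median of -0.04 (29 of 45 below 0, with PCNA at 483 and 464 TPM), and the G2 and M phase genes a median of 0.07 (29 of 44 above 0, with BIRC5 at 441 and 480 TPM). The 3 histone genes past the rule, of 61 measured, were higher, beside 1.7% of all genes measured. H3C3 stood at 46.5 TPM in EV, 97.7 TPM in MT and 10.9 TPM in WT, H2BC3 at 4.59, 12.1 and 1.31 TPM, and H4C13 at 4.76, 13.1 and 0.673 TPM. Histone genes of one class are near copies, and pairs such as H3C14 and H3C15 carried identical values (3044 TPM in EV against 2697 TPM in MT). The H3C genes summed to 16649 TPM in EV against 14827 TPM in MT, so H3C3 went against the sum of its class.

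Of the 194 genes at 1000 TPM or more, 131 lay below 0 and the median log2 difference was -0.06. The 60 ribosomal protein genes among them had a median of -0.09 with 50 below 0, and the 32 histone genes a median of -0.17 with 30 below 0. The other 102 were even, with 51 below 0 and a median of 0.00.

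In glycolysis, which VHL-deficient cells use heavily, 14 of 19 enzymes lay below 0 with a median log2 difference of -0.09 and none past the rule. PKM stood at 2357 TPM in EV against 2374 TPM in MT. Targets of hypoxia-inducible factors had medians of opposite sign in the 2 assays, 0.06 in footprints (16 of 26 above 0) and -0.25 in mRNA. NDRG1 showed this with 646 and 799 TPM in footprints and 135 and 99.8 FPKM in mRNA, and so did DDIT4 with 261 and 299 TPM and 161 and 97.6 FPKM. VEGFA was below EV in both, with 36.3 and 32.2 TPM and 59.6 and 46.5 FPKM. The factor itself, EPAS1, stood at 6.32 and 6.56 TPM, and VHL at 7.41 and 9.96 TPM.

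Interferon-stimulated genes had an mRNA median of -0.37 and a footprint median of -0.06, with 27 of 40 below 0 in footprints. IFITM2, an interferon-induced block to virus entry, was the 1 higher. It stood at 16.5 TPM in EV, 44.1 TPM in MT and 9.47 TPM in WT, while its mRNA was 6.99 FPKM in EV and 3.92 FPKM in MT. OAS2, an interferon-induced synthetase, was the 1 lower, at 2.38 and 0.559 TPM. Antigen presentation genes had no member past the rule in 16, and B2M stood at 7804 TPM in EV against 9067 TPM in MT. Of 21 NF-kappaB and inflammatory genes, the chemokine gene CXCL1 was the 1 lower, at 1.44 TPM and listed at 0.

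**Figure D4:**
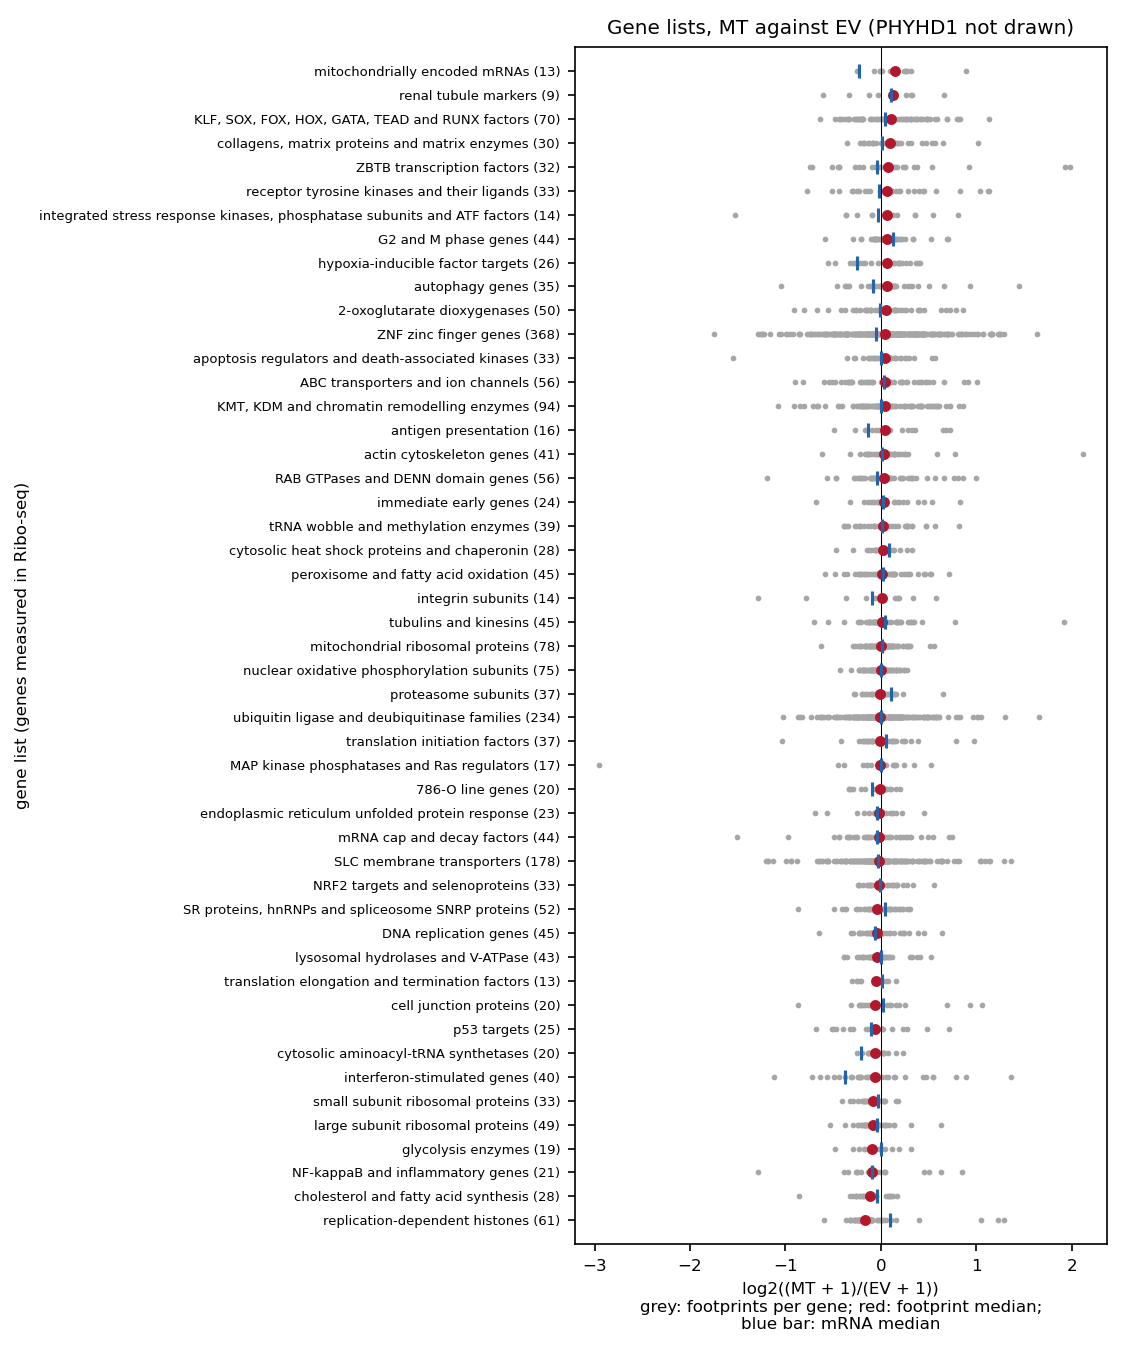
Gene lists with at least 3 measured genes, ordered by the median footprint log2 difference (MT over EV, x axis), with each gene as a grey point, the footprint median in red, the mRNA median as a blue bar and the number measured in brackets. Footprint medians run from -0.16 for replication-dependent histones to 0.14 for mitochondrially encoded mRNAs, while single members lie far outside that range.

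Other lists had at most 1 member past the rule. None passed among NRF2 targets and selenoproteins (33), lysosomal hydrolases and V-ATPase (43), peroxisome and fatty acid oxidation (45), heat shock proteins and chaperonin (28), p53 targets (25), tRNA modification enzymes (39), splicing proteins (52), immediate early genes (24) or 786-O line genes (20). Among 30 collagen and matrix genes COL6A3 was higher, at 0.109 TPM in EV against 1.248 TPM in MT. Among 94 chromatin enzymes SIRT3, the mitochondrial deacetylase, was lower, at 7.90 TPM in EV against 3.23 TPM in MT, with mRNA at 6.41 and 3.402 FPKM.

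Several of the largest differences belonged to genes with similar copies. How their footprints were assigned between copies was not tested. Copies were looked for by the share of 30-base windows of a RefSeq promoter found in another gene's promoter. At 10 TPM or more, 6 of the 69 genes past the rule with a promoter (8.70%) shared at least 50% of their windows, against 36 of all 5274 such genes (0.683%). They were FAM72A, FAM72D, NOTCH2NLB, NOTCH2NLC, ZNG1A and ZNG1E. Genes without a promoter here, such as SMN1 and IFITM2, could not be searched this way. The match is of promoters and not of the translated sequence. Promoters of NOTCH2NLB and NOTCH2NLC matched at 258 of 298 aligned bases (86.6%), and those of FAM72A and FAM72D at 292 of 293. Shown are 120 bases ahead of each start, from RefSeq GRCh38.p14, which are the same in both, FAM72A at chr1:206204115-206204234 on the minus strand and FAM72D at chr1:145094639-145094758 on the plus strand.
FAM72A: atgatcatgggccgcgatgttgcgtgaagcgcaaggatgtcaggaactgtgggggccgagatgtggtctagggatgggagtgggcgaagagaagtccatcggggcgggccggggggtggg
FAM72D: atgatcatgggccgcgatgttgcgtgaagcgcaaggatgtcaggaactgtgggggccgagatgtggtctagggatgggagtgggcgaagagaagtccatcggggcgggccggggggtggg

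ZNG1A and ZNG1E, which encode zinc chaperones of the same family, matched at 284 of 292 aligned bases. Capitals mark the 5 bases that differ between the 120 shown, ZNG1A at chr9:179027-179146 on the minus strand and ZNG1E at chr9:65675800-65675919 on the plus strand.
ZNG1A: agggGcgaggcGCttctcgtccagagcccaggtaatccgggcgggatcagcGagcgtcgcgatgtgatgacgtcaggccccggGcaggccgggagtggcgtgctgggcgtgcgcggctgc
ZNG1E: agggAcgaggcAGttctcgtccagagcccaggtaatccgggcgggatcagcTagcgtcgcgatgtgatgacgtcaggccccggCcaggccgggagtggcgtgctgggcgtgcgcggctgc

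The copies differed in opposite directions while their sums stayed closer. FAM72A stood at 12.4 TPM in EV against 2.04 TPM in MT, FAM72D at 0 and 11.9 TPM, and FAM72C at 8.93 and 5.64 TPM. The FAM72 sum, with FAM72B at 0, was 21.3 TPM in EV, 19.6 TPM in MT and 30.4 TPM in WT. ZNG1A stood at 17.9 and 49.6 TPM and ZNG1E at 27.9 and 12.7 TPM, within a ZNG1 sum of 357.9 TPM in EV against 368.9 TPM in MT. The NOTCH2NL genes, human-specific relatives of NOTCH2, were the exception, as their sum was 14.03 TPM in EV, 26.8 TPM in MT and 15.3 TPM in WT. Among them NOTCH2NLB stood at 1.248 and 17.7 TPM and NOTCH2NLC at 10.0 and 2.61 TPM. RAMACL, a copy of the cap methyltransferase subunit gene RAMAC, stood at 12.3 and 3.70 TPM with mRNA listed at 0, while RAMAC stood at 82.1 and 85.0 TPM. SMN1, called higher, stood at 5.93 TPM in EV against 15.1 TPM in MT, and SMN2 at 28.7 and 16.3 TPM. The SMN sum was 34.7 TPM in EV, 31.4 TPM in MT and 34.9 TPM in WT. These sums were chosen after the values were seen.

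**Figure D5:**
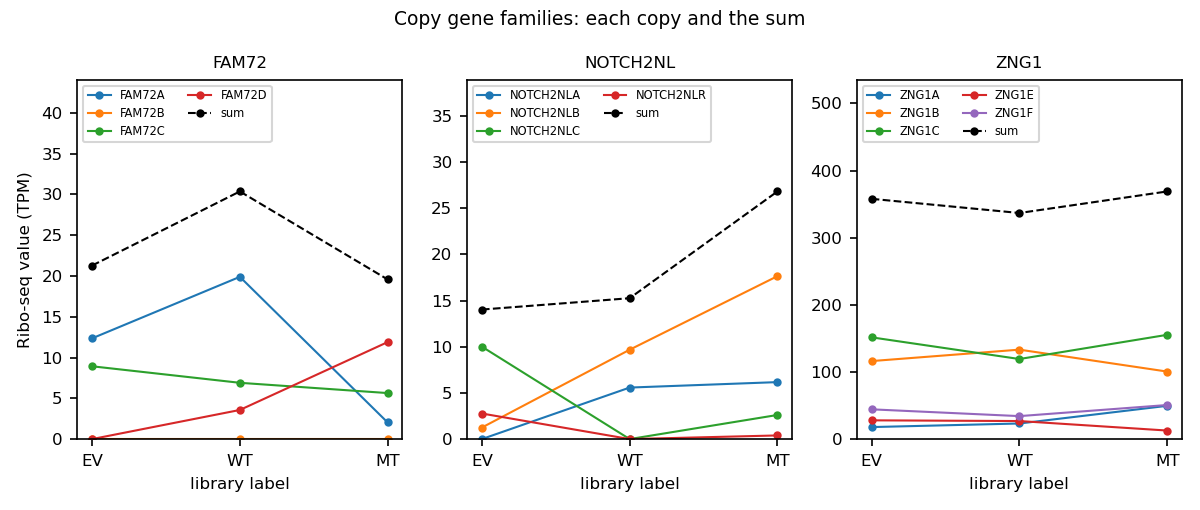
Ribo-seq values (y axis, TPM) of each copy in the FAM72, NOTCH2NL and ZNG1 families in the libraries labelled EV, WT and MT, with the family's sum as a dashed black line. FAM72A and FAM72D cross between EV and MT under a sum of 21.3 and 19.6 TPM, whereas the NOTCH2NL sum is 14.03 TPM in EV against 26.8 TPM in MT.

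Readthrough names were also among the largest differences. ST20-MTHFS was listed at 0 in EV and 15.0 TPM in MT, beside MTHFS at 35.5 and 38.1 TPM. ARPIN-AP3S2 stood at 1.94 TPM in EV against 12.01 TPM in MT while ARPIN stood at 7.20 and 1.72 TPM. ARL2-SNX15 was lower, at 28.8 and 11.2 TPM, with mRNA listed at 0 in both, and its partner ARL2 stood at 80.9 and 91.0 TPM. Reads of a readthrough transcript and of its component genes overlap, so these values are uncertain.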

How the data were processed

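Per the labels' protocols, cells were treated with 100 µg/ml cycloheximide, which stops elongation and can shift footprints when added to living cells, and footprints were made with RNase I. The authors deposited 1 table of 20307 rows for 6 libraries. The deposited Ribo-seq columns are TPM, as each sums to 1000000. The deposited RNA-seq columns carry no unit and were read as FPKM, since they sum to 469859 (EV) and 462322 (MT). No source used here gives read totals, aligner, counting or annotation, so depth is unknown and no interval was possible. The submitters' processing notes name human genome build 18, so no coordinates of the files' genes are given.

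Left out were 605 rows without a gene name (0.520% of EV and 0.564% of MT footprint values) and 7 symbols with differing rows. All 19669 names matched the reference symbol table. Differences are log2((MT + 1)/(EV + 1)), which understates changes of low genes. The calculation was tested on simulated data of genes at 10 TPM or more in EV, with counting noise alone at an assumed depth. That test does not bear on lower genes or on variation between real libraries. Python 3.11.15, pandas 2.3.3, numpy 2.4.6 and matplotlib 3.10.9 were used.

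Genes were named by a rule. Setting aside readthrough names and copies, it took up to 20 highest and up to 20 lowest past 2-fold at 10 TPM or more. Fewer than 20 lower genes qualified. It also took, without such names and copies, the 12 largest differences at 100 TPM or more. From each list it took up to 4 members past 2-fold (or else its 2 most abundant), and it added 8 fixed genes. Readthrough names and copies past the rule at 10 TPM or more were added as uncertain. The members, rule and 50 gene lists were chosen with earlier results of these data known. A few of the genes it picks are left unreported here. The planned search for copies by protein windows was not run, and 30-base windows of RefSeq promoters, chosen after seeing the data, took its place. Promoters span 250 bases before to 50 bases after a start. Other members are named from the same lists, chosen after their values were seen.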

Additional observations from a re-analysis of the deposited data

How the results depend on the processing

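The counts of genes past the rule depended on the scale, the minimum and the fold. With a pseudocount of 0.1 in place of 1, 386 genes were higher and 274 lower, and with 5 there were 32 and 9. At a minimum of 10 TPM 63 were higher and 22 lower, and at 100 TPM 2 and 0. A 3-fold rule gave 27 and 12, and a 1.5-fold rule 682 and 480. The share of calls that were higher was 59.9% as reported, 78.0% with a pseudocount of 5, 74.1% at 10 TPM and 69.2% at 3-fold. With no filter, 2 other scalings, or without readthrough names and copies, higher genes numbered 168 to 195 and lower ones 112 to 128. Both scalings moved MT up against EV by about 0.01 on the log2 scale. Scaling to totals without mitochondrial, histone and PHYHD1 values also enlarged the values against the added 1. With it, 195 genes were higher and 128 lower. No named gene past the rule changed direction. Of named genes past the rule, 43 were under 2-fold with a pseudocount of 5 and 54 under a 3-fold rule, and 5 more passed at 1.5-fold. The median of the renal tubule markers was 0.13 as reported and -0.18 at 10 TPM. Medians of 10 other lists changed sign under some setting: tubulins and kinesins, ubiquitin enzymes, SLC transporters, RAB genes, peroxisome, nuclear oxidative phosphorylation, antigen presentation, autophagy, proteasome and initiation factors. No paired analysis was possible because each label has 1 library per assay, and for the same reason no replicate could be left out. The protein-window alternative was not run.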
